A study of Mus musculus with 12 samples.

Results

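The cytochrome P450 genes were taken as all genes whose symbol in the platform annotation starts with Cyp followed directly by a digit, and only probe sets that name 1 gene were used. This gave 63 genes, read by 78 probe sets, of 12393 genes named on the array. Total lung RNA was read on 12 arrays (Affymetrix Murine Genome 430A) that form 4 groups of 3. Wild-type (Nrf2+/+) and Nrf2-deficient (Nrf2-/-) mice, both of CD-1/ICR stock, either breathed on their own (SpV, the controls) or were mechanically ventilated at a tidal volume of 30 ml/kg (HVT), in each case for 2 hours. The labels give a left lung lobe for 11 arrays and a whole lung for array 1 of the wild-type SpV group, and they give no age or sex. They do not say that the arrays come from separate animals, so the p-values cover only how far these samples scatter, and that scatter may be technical.

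P450 enzymes are heme proteins that insert an oxygen atom into their substrates, with electrons passed on from NADPH by reductases, cytochrome b5 or, in mitochondria, ferredoxin. Members of families 1 to 3 mainly oxidise drugs, pollutants and other foreign compounds, and in mouse lung several of them belong to the club cells of the airways. Family 4 mainly hydroxylates fatty acids and eicosanoids, and most other families make or clear sterols, bile acids, steroid hormones, retinoic acid and vitamin D. Nrf2, encoded by Nfe2l2, binds antioxidant response elements and is best known for the conjugating and antioxidant enzymes that act after the P450s, while the aryl hydrocarbon receptor (AHR) is the classical inducer of Cyp1a1 and Cyp1b1.

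The stretches of 250 bases before the start that the RefSeq table gives for 4 genes are shown because the values below turn on Cyp2s1, Cyp4v3 and Cyp1a1, and because Cyp1b1 is a further AHR target. They come from RefSeq for assembly GRCm38.p6, run 5′ to 3′ on the strand of the gene, and carry in capitals any match to GCGTG, the core of an AHR site, read on either strand. Cyp2s1 lies at chr7:25816526-25816775 on the minus strand, Cyp4v3 at chr8:45333164-45333413 on the minus strand, Cyp1a1 at chr9:57697363-57697612 on the plus strand and Cyp1b1 at chr17:79715062-79715311 on the minus strand. The Cyp1a1 stretch lies inside the interval annotated for the gene, 57687928 to 57703824, so the start behind it is not the first base of that interval.
Cyp2s1: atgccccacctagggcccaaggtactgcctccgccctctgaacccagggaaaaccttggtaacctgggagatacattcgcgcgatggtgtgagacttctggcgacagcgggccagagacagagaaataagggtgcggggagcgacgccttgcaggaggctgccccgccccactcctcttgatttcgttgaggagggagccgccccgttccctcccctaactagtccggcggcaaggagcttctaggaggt
Cyp4v3: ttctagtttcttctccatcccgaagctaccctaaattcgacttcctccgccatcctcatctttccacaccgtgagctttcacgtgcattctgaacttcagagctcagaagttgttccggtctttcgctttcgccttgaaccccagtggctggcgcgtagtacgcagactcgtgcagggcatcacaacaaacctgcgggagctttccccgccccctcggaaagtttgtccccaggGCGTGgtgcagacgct
Cyp1a1: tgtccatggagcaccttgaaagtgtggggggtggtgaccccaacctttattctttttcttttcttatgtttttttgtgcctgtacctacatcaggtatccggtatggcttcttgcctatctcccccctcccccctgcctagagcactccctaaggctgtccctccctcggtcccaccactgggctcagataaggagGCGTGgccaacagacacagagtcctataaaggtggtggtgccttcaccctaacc
Cyp1b1: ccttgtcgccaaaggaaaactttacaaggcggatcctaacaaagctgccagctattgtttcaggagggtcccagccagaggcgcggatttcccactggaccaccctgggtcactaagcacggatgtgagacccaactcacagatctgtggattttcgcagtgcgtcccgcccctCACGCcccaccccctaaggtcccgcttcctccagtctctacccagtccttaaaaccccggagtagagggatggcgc
The match lies 54 to 50 bases before that start in Cyp1a1 and 16 to 12 bases before it in Cyp4v3. In Cyp1b1 it is on the opposite strand, 76 to 72 bases before the start. Cyp2s1 holds no match. GCGTG was present in 12 of 53 windows of P450 genes (22.6%, from 11 of the 46 genes with a window), against 28.2% of all 32851 windows of this length. TGACNNNGC, the core of an antioxidant response element, was searched on both strands too, and its closing GC can also open a GCGTG match. It was present in 3 of 53 P450 windows (5.66%; Cyp4f14, Cyp4f18 and Cyp8b1), against 10.2% of all windows, and in none of the 4 windows shown. A match is a description of these letters only.

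The deposited signals differed in overall brightness, with trimmed means from 73.9 on array 1 of the knockout SpV group to 469. That array also stood apart in the ratio of its 3′ to 5′ beta-actin control signals, 8.76 against 1.39 to 3.10 elsewhere, and in its mean correlation with the other arrays, 0.874 against 0.922 to 0.943. Arrays were therefore scaled and quantile normalized. For Cyp2s1, Cyp39a1, Cyp4v3, Cyp4f18, Cyp2j6 and the ciliated cell markers, differences are given with and without this array. For most other genes they are given only with it. Nfe2l2 read 2144 to 3298 in the wild type and 36.2 to 61.3 in the knockout, as the labels say. Markers of club cells, alveolar cells, endothelium and fibroblasts were all present, and markers of heart muscle too (summed signal 20114 to 31429 in the wild type and 32418 to 49889 in the knockout).

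Of the 63 P450 genes, 31 (49.2%) passed the filter on low values, a normalized signal of at least 100 on at least 3 arrays, against 75.0% of all named genes. By role, 14 of 35 airway and xenobiotic genes passed, 8 of 14 genes of fatty acids and eicosanoids, 7 of 9 genes of sterols, bile acids and vitamin D, 1 of 4 genes of steroid hormone synthesis (Cyp21a1, the steroid 21-hydroxylase) and the single gene of retinoic acid clearance, Cyp26a1. The other 32 were read below that. They include Cyp1a2 (7.7 to 81.0), a further AHR target best known from liver, Cyp3a11 (32.6 to 81.2), a main drug-metabolizing enzyme of mouse liver, Cyp17a1 (8.7 to 38.3), which acts in androgen synthesis, and Cyp24a1 (12.8 to 64.1), which clears active vitamin D. Of these 32, only Cyp2c70 reached 100 on any array, on 2 of 12. Some members passed through few arrays, such as Cyp2b9 and Cyp46a1 (3 of 12 each, for Cyp46a1 all in the knockout) and Cyp4f18, Cyp7a1 and Cyp2c68 (4 of 12 each).

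**Figure D1:**
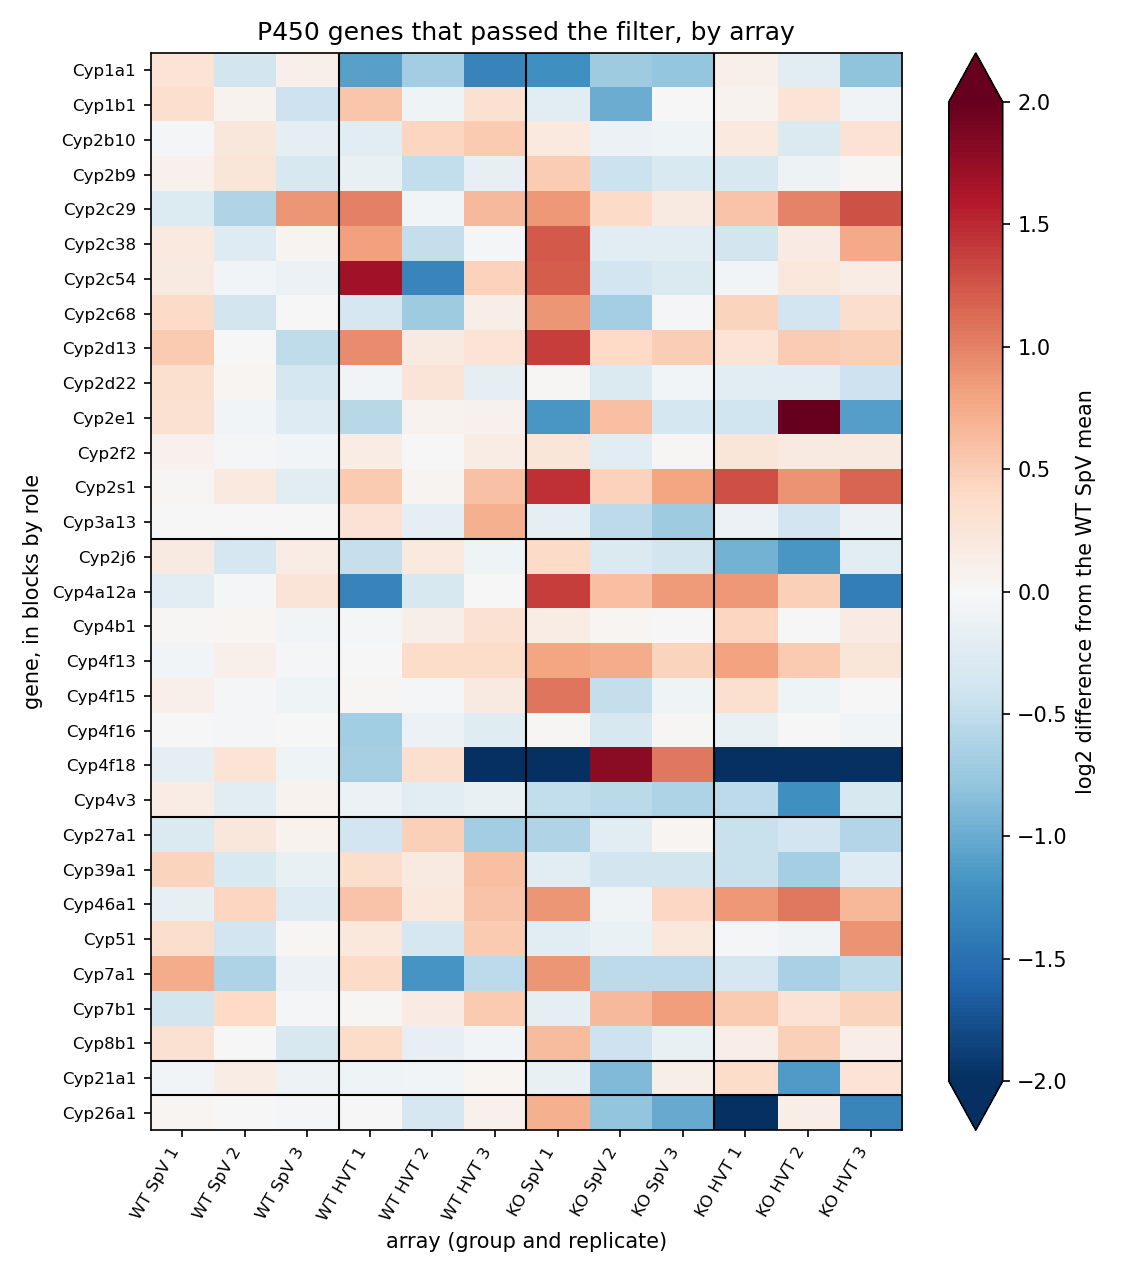
Heat map of the 31 P450 genes that passed the filter (rows, in blocks by role) on the 12 arrays (columns, 3 per group). Colour gives the log2 difference of the normalized signal from the mean of the wild-type SpV group, cut at 2 in either direction. Within each kind of breathing the knockout arrays lie above the wild-type arrays for Cyp2s1 and below them for Cyp4v3, and Cyp4f18 is low on all 3 knockout HVT arrays, on array 1 of the knockout SpV group (6.9) and on array 3 of the wild-type HVT group (12.8).

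Loss of Nrf2 went with a higher signal of Cyp2s1, and of no other P450 gene at the threshold used, when both kinds of breathing were averaged. Cyp2s1 (Entrez Gene 74134, chromosome 7, 25802469 to 25816525, minus strand) is an epithelial P450 that can be induced through AHR. Its normalized signal was 2995, 3343 and 2518 on wild-type SpV arrays 1 to 3 and 4226, 3041 and 4411 on wild-type HVT arrays. In the knockout it was 8142, 4041 and 5098 on SpV arrays and 7224, 5462 and 6593 on HVT arrays. Within each kind of breathing all knockout arrays lay above all wild-type arrays, though the lowest knockout SpV array lay below 2 of the 3 wild-type HVT arrays. The averaged difference was 0.82 ± 0.17 (SE) on the scale of log2(signal + 16), a 1.76-fold higher level, with an adjusted p of 0.0213 in limma after Benjamini-Hochberg adjustment over 9294 genes. It was thus the 1 P450 gene called of 31 in this comparison, in which 3.74% of all genes were called. The difference was 0.91 ± 0.24 at rest (adjusted p = 0.122) and 0.73 ± 0.24 under ventilation (adjusted p = 0.209), and neither was called.

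Cyp2s1 was called with and without the array that stood apart. Without array 1 of the knockout SpV group the averaged difference was 0.67 ± 0.13 (adjusted p = 0.00869), and the difference under ventilation was then called as well, at 0.71 ± 0.17 (adjusted p = 0.0294). That fit called 6.82% of all genes in the average and 5.29% under ventilation. The comparison under ventilation holds no SpV array, so leaving that array out acts on it only through the shared spread, the normalization and the filter. The call was lost on leaving out wild-type SpV array 3 (0.77, adjusted p = 0.0666), wild-type HVT array 2 (0.74, 0.0618), knockout HVT array 1 (0.77, 0.0581) or knockout HVT array 3 (0.80, 0.0529). It was also lost on the deposited values without scaling (0.22, adjusted p = 0.679), where the median of all genes shifted by -0.61.

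Genes with the most similar pattern to Cyp2s1 over the 12 arrays were Rsph1 (Pearson r = 0.976), Tekt1 (0.973) and Cp (0.970), given as a description over arrays that share the 4 groups. Array 1 of the knockout SpV group held the highest signal of Cyp2s1, of Rsph1 (1772.5) and of Tekt1 (568). No correlation was computed without it. Rsph1 and Tekt1 encode parts of the cilium's axoneme, and Cp encodes the copper-binding ferroxidase ceruloplasmin. Rsph1 was 1.02 ± 0.22 higher in the knockout (adjusted p = 0.0266), Cp was 0.89 ± 0.15 higher (adjusted p = 0.0100), and Tekt1 differed by 0.64 ± 0.18 (adjusted p = 0.0653). Of 8 markers listed for ciliated cells, 5 were on the array and passed the filter. All 5 had a higher mean in the knockout and 1 (Rsph1) was called, with a median difference of 0.46, in the comparison that called 3.74% of all genes. Their summed signal was 5038 to 5500 on wild-type SpV arrays, 4269 to 5437 on wild-type HVT arrays, 5728 to 10264 on knockout SpV arrays and 5421 to 7769 on knockout HVT arrays. No defining marker was at 0, and Foxj1, the regulator of motile ciliogenesis, differed by 0.46 ± 0.25 (adjusted p = 0.311). Without array 1 of the knockout SpV group the differences were 0.81 ± 0.15 for Rsph1 (adjusted p = 0.00648), 0.50 ± 0.14 for Tekt1 (0.0534), 0.25 ± 0.19 for Foxj1 (0.476), 0.15 ± 0.10 for Tppp3 (0.387) and 0.34 ± 0.19 for Dnah5 (0.332). The part of the ciliated markers in the Cyp2s1 difference was not tested. In whole lung tissue a different number of cells of a type and a different amount of RNA per cell cannot be told apart.

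**Figure D2:**
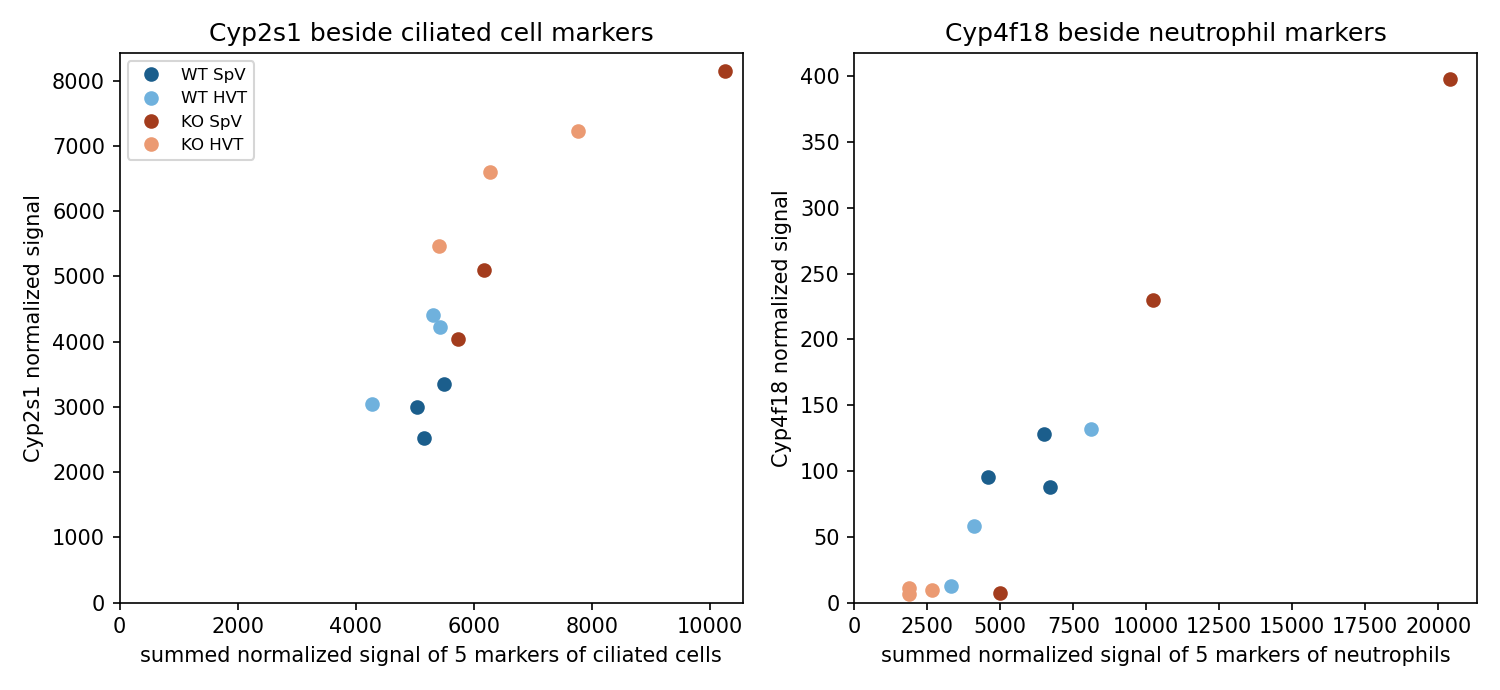
Normalized signal of Cyp2s1 against the summed signal of 5 ciliated cell markers (left) and of Cyp4f18 against that of 5 neutrophil markers (right), with 1 point per array and colours for the 4 groups. The highest Cyp2s1 signal (8142) and the highest ciliated sum (10264) belong to the same array, and the highest Cyp4f18 signal (398) belongs to the array with the highest neutrophil sum (20416).

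Cyp39a1 and Cyp4v3 had the next smallest p-values in the averaged genotype comparison, and both were lower in the knockout without passing the threshold. Cyp39a1 hydroxylates 24-hydroxycholesterol on the way to bile acids. It read 526, 306 and 340.2 on wild-type SpV arrays, 488, 431 and 588 on wild-type HVT arrays, 325, 292 and 292 on knockout SpV arrays and 275, 230.1 and 316 on knockout HVT arrays. Its groups overlapped at rest but not under ventilation, where all 3 knockout arrays lay below all 3 wild-type arrays. The averaged difference was -0.58 ± 0.15 (limma adjusted p = 0.0529) and that under ventilation -0.84 ± 0.21 (adjusted p = 0.109). Both passed the threshold without array 1 of the knockout SpV group, at -0.61 (adjusted p = 0.0355) and -0.84 (adjusted p = 0.0327). That fit called 6.82% of all genes in the average and 5.29% under ventilation. The comparison under ventilation holds no SpV array, so leaving that array out acts on it only through the shared spread, the normalization and the filter.

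Cyp4v3 is a fatty acid hydroxylase whose human counterpart is mutated in Bietti crystalline dystrophy of the retina. It read 905, 694 and 860.2 on wild-type SpV arrays, 747, 693.5 and 733 on wild-type HVT arrays, 574, 557 and 526 on knockout SpV arrays and 563, 337.5 and 649 on knockout HVT arrays. All 6 knockout arrays lay below all 6 wild-type arrays, which held for no other of the 31 genes in either direction and for 2.53% of all genes (1.31% lower). The averaged difference was -0.54 ± 0.15 (adjusted p = 0.0646). A second probe set of Cyp4v3 gave a larger difference, -0.97 ± 0.19 (adjusted p = 0.0266 with every probe set tested on its own). The mean over both probe sets was -0.75 (adjusted p = 0.0119). On the first probe set the difference was also called with equal array medians (-0.60, adjusted p = 0.0401), with array weights (-0.57, 0.00978) and with the beta-actin ratio as a covariate (-0.58, 0.0367). Of all genes, these fits called 3.57%, 12.3% and 7.25%. Over all 25 alternatives, those on other probe sets included, the difference was called in 6, with adjusted p-values up to 0.229. Without array 1 of the knockout SpV group it was -0.55 ± 0.15 and not called (adjusted p = 0.0513). Beside these lower values, 7 of 8 endothelial markers were lower in the knockout too, and 5 were called (3.74% of all genes were). The remaining marker, Kdr, went the other way, with 2134 to 2601 on wild-type HVT and 2569 to 3006.5 on knockout HVT arrays. Summed endothelial signals were 13612 to 24204 in the wild type and 8367 to 15745 in the knockout. Alveolar type I markers had 4 of 6 called lower. Their part in the Cyp39a1 and Cyp4v3 values was not tested.

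**Figure D3:**
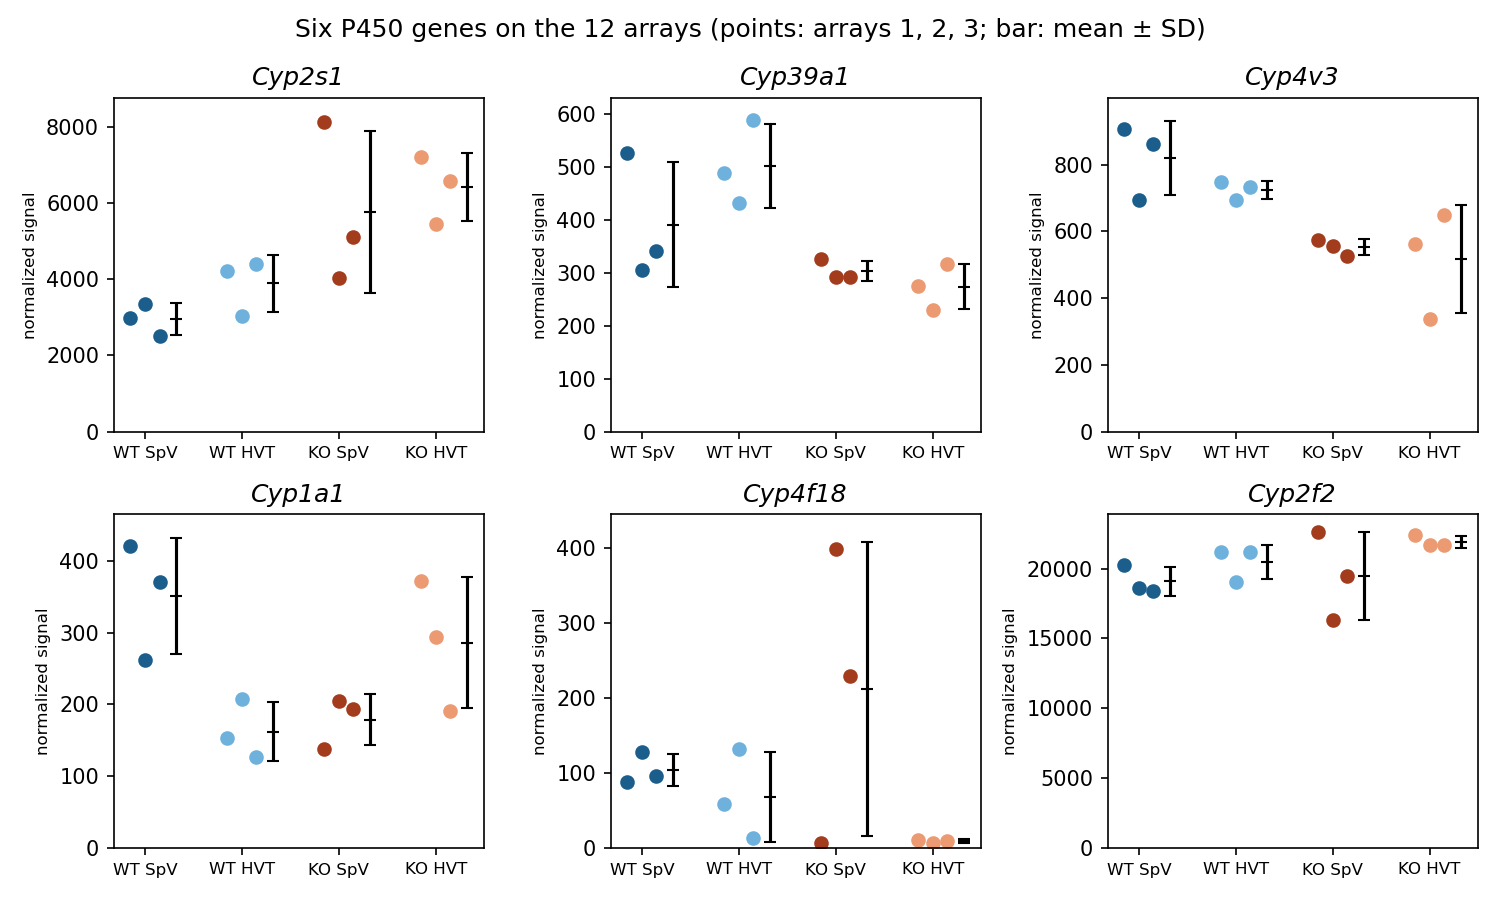
Normalized signal of 6 P450 genes by group, with a point per array (arrays 1, 2 and 3 from left to right) and a bar for the mean ± SD of 3 arrays. Within each kind of breathing the knockout arrays lie above the wild-type arrays for Cyp2s1, all 6 knockout arrays lie below all wild-type arrays for Cyp4v3, Cyp1a1 is lower in wild-type HVT than in wild-type SpV lungs, and Cyp2f2 stays between 16344 and 22659 on all 12 arrays.

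Counted over the family, the loss of Nrf2 did not stand out from the rest of the array. At rest 0 of 31 P450 genes were called, where 0.334% of all genes were, and 5 (16.1%) had an unadjusted limma p under 0.05, against 13.8% of all genes. Under ventilation the count was again 0, against 0.742% of all genes, and 4 (12.9%) had an unadjusted p under 0.05, against 12.8%. In the average 5 (16.1%) did, against 21.4% of all genes. The median difference over the 31 genes was 0.00 at rest, 0.06 under ventilation and 0.03 in the average, beside -0.01, 0.01 and 0.01 over all genes. The 2 genotype comparisons within a kind of breathing share no arrays, but each is contained in the average.

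Groups of 3 arrays did not overlap for 6 of 31 P450 genes at rest (19.4%, against 18.4% of all genes). Of these, 3 were higher in the knockout (Cyp2s1, Cyp4a12a and Cyp4f13, with 8.90% of all genes higher) and 3 lower (Cyp1a1, Cyp3a13 and Cyp4v3, with 9.54% of all genes lower). Of the wild-type arrays only SpV array 3 read Cyp4a12a at 100 or more, so this gene passed the filter through the knockout. Under ventilation 7 did not overlap (22.6%, against 25.3%). Cyp2s1, Cyp46a1 and Cyp2f2 were higher there (12.4% of all genes were), though Cyp46a1 passed the filter through knockout arrays alone, and Cyp4v3, Cyp39a1, Cyp4f18 and Cyp2d22 were lower (13.0%). These shares lie near those of all genes.

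Among the enzymes of fatty acids and eicosanoids, Cyp4f13 read 103, 116 and 104 in wild-type SpV and 197, 191 and 152 in knockout SpV lungs. The HVT arrays read 107, 143.5 and 143 in the wild type and 200.3, 162.5 and 131 in the knockout, where the groups overlap. Its difference was 0.66 ± 0.22 at rest (adjusted p = 0.222) and 0.47 ± 0.15 in the average (adjusted p = 0.107). Cyp4a12a, a fatty acid hydroxylase that makes the vasoconstrictor 20-HETE, differed by 0.95 ± 0.53 at rest (adjusted p = 0.448), from 69.1, 82.1 and 104 in the wild type to 245, 136 and 165 in the knockout. Its HVT arrays read 23.7, 64.4 and 85.1 in the wild type and 166, 123 and 22.4 in the knockout. It reached 100 on 6 of 12 arrays, in the wild type only on SpV array 3, so it passed the filter through the knockout. With ventilation over both genotypes it differed by -0.75 ± 0.37 (adjusted p = 0.401), and by -0.41 without knockout HVT array 3. Cyp4f15 (0.10 ± 0.22) and Cyp4f16 (0.10 ± 0.13) had averaged genotype differences below their SE.

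Cyp3a13, a xenobiotic enzyme of family 3, read 161, 162 and 162.5 in wild-type SpV and 140.5, 107.5 and 93.1 in knockout SpV lungs. The averaged difference was -0.47 ± 0.17 (adjusted p = 0.141). Cyp26a1, which breaks down retinoic acid, had the lowest averaged difference of the 31 genes, -0.68 ± 0.36 (adjusted p = 0.303). Its wild-type arrays lay between 145 and 199, and 5 of its knockout arrays lay between 34.0 and 206.6. The remaining knockout array, at 315, is array 1 of the SpV group, which stood apart. With array weights, which gave that array a weight of 0.133, the difference was -1.01 ± 0.26 and was called (adjusted p = 0.0221). That fit called 12.3% of all genes.

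**Figure D4:**
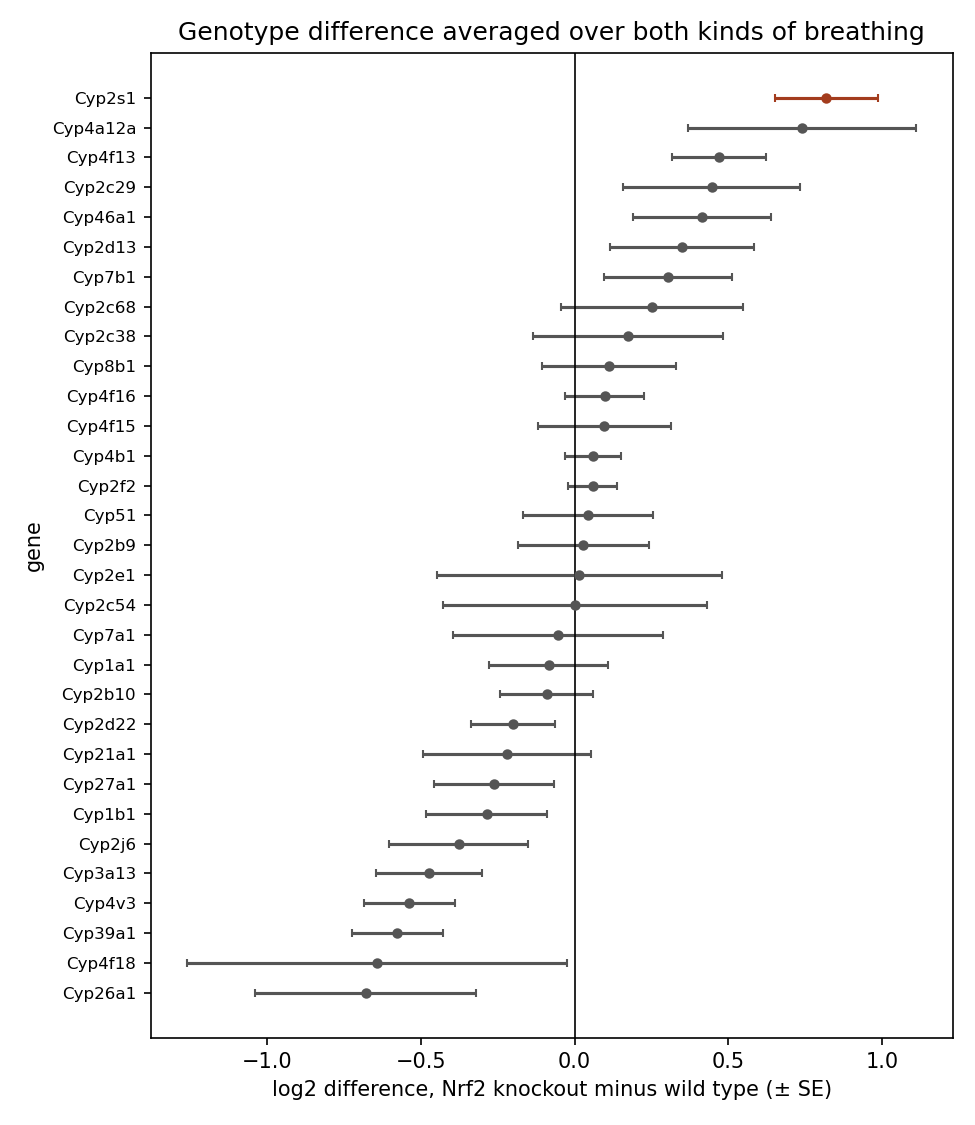
Log2 difference between knockout and wild type, averaged over both kinds of breathing, for the 31 P450 genes (points, with bars of ± 1 SE). The values run from -0.68 (Cyp26a1) to 0.82 (Cyp2s1, in red), and Cyp2s1 is the only gene past an adjusted p of 0.05.

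Ventilation moved no P450 gene past the threshold in either genotype. In the wild type 0 of 31 were called (0.0753% of all genes were), and 1 (3.23%) had an unadjusted p under 0.05, against 8.02% of all genes. In the knockout 0 were called (0% of all genes), and 2 (6.45%) had an unadjusted p under 0.05, against 10.6%. Averaged over both genotypes 0 were called (0.108% of all genes) and 1 (3.23%) had an unadjusted p under 0.05, against 13.3%. The medians over the 31 genes were 0.06 in the wild type and -0.01 in the knockout, beside -0.04 and 0.00 over all genes. No 2 groups of 3 arrays were free of overlap in the knockout (14.4% of all genes were), and 2 genes were in the wild type (6.45%, against 17.1%), Cyp1a1 and Cyp4f16, both lower with ventilation (9.22% of all genes were lower). Cyp4f16 read 302, 296 and 301 on wild-type SpV arrays, 179.5, 274 and 252 on wild-type HVT arrays, 306, 238 and 303.5 on knockout SpV arrays and 268, 303 and 289 on knockout HVT arrays. Its difference with ventilation in the wild type was -0.35 ± 0.18 (adjusted p = 0.705), and -0.18 without wild-type HVT array 1, the lowest of the 12. Cyp39a1 differed by 0.38 ± 0.21 there (adjusted p = 0.750), with a range of 0.23 to 0.60 on leaving out 1 array. Over both genotypes no P450 gene had all ventilated arrays on one side of all controls, as 1.12% of all genes did.

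Cyp1a1, the AHR target that oxidises polycyclic aromatic hydrocarbons, had the smallest p-value of the family for ventilation in the wild type and for the interaction of genotype with ventilation. It read 420.2, 262 and 369.8 in wild-type SpV lungs and 153, 207 and 126.5 in wild-type HVT lungs, where the groups do not overlap. In the knockout it read 138, 204 and 194 on SpV arrays and 372, 294 and 190.5 on HVT arrays, where they do. The difference with ventilation was -1.04 ± 0.27 in the wild type (adjusted p = 0.300) and 0.60 ± 0.27 in the knockout (adjusted p = 0.464). The latter was 0.40 without knockout HVT array 1 and 0.86 without knockout HVT array 3. The difference between these, the interaction, was 1.64 ± 0.39, with an unadjusted limma p of 0.00105 and an adjusted p of 0.654. No gene on the array was called in the interaction, and 1 of 31 P450 genes (3.23%) against 4.86% of all genes had an unadjusted p under 0.05. The next smallest p-values in the interaction belonged to Cyp39a1 (-0.52 ± 0.30) and Cyp2d13 (-0.81 ± 0.47). At rest the knockout differed from the wild type by -0.91 ± 0.27 (adjusted p = 0.180). With array weights estimated by limma the interaction of Cyp1a1 was called, at 1.72 ± 0.32 (adjusted p = 0.0272), together with 0.990% of all genes. The adjusted p of the interaction lay above the threshold in the other alternatives that gave a value for Cyp1a1.

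Cyp1b1, which AHR also induces, read 345, 282 and 198.5 on wild-type SpV arrays, 402, 251 and 334 on wild-type HVT arrays, 227, 127 and 267 on knockout SpV arrays and 284, 327 and 256 on knockout HVT arrays. All of its groups overlap, and the interaction was 0.25 ± 0.39. Its second probe set, which reached 100 on 5 of 12 arrays, gave 1.47 ± 0.47, so its probe sets disagree. Of the receptor genes, Ahr read 1474 to 1715 on wild-type SpV arrays, 1531 to 2145 on wild-type HVT arrays, 768 to 1395 on knockout SpV arrays and 1324 to 1570 on knockout HVT arrays. Its averaged genotype difference was -0.40 ± 0.15 (adjusted p = 0.144). The lowest Ahr reading, 768, is on array 1 of the knockout SpV group, which stood apart, and the other knockout arrays read 1258.5 to 1570. Tiparp, another AHR target, differed by 0.70 ± 0.24 with ventilation in the wild type (adjusted p = 0.448), opposite in sign to Cyp1a1, and Ahrr, the AHR repressor, did not pass the filter.

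**Figure D5:**
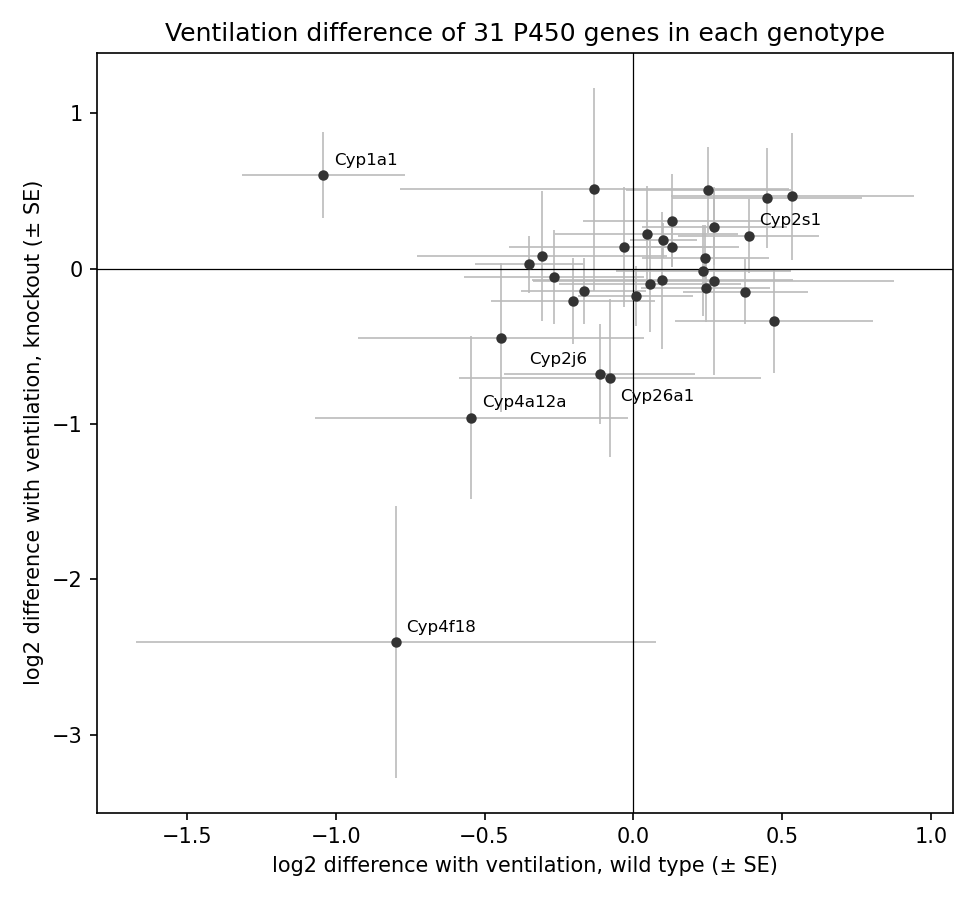
Log2 difference with ventilation in the wild type (horizontal axis) and in the knockout (vertical axis) for the 31 P450 genes, with bars of ± 1 SE. Cyp1a1 lies at -1.04 and 0.60, and Cyp4f18 at -0.80 and -2.41, and neither axis holds a gene past an adjusted p of 0.05.

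Cyp4f18 inactivates leukotriene B4 and is a P450 of neutrophils. It read 87.7, 128 and 95.4 on wild-type SpV arrays, 58.5, 131.5 and 12.8 on wild-type HVT arrays, 6.9, 398 and 229.5 on knockout SpV arrays and 11.1, 6.4 and 9.9 on knockout HVT arrays. The knockout HVT arrays were all low, and the knockout SpV group held both the highest array of all and 1 at the level of the ventilated arrays. The difference with ventilation in the knockout was -2.41 ± 0.87 (adjusted p = 0.376). The low knockout SpV array is array 1, which stood apart, and without it the difference was -3.69 ± 0.55 (adjusted p = 0.00426), in a fit that called 6.54% of all genes. Without array 2 of that group, the highest, it was -1.58 ± 0.87 (adjusted p = 0.663). Over both genotypes the difference was -1.60 ± 0.62 (adjusted p = 0.284). It was -2.24 ± 0.37 (adjusted p = 0.00640) without array 1 of the knockout SpV group, in a fit that called 7.06% of all genes. Of 6 neutrophil markers listed, 5 were on the array and passed. Their summed signal was 4569 to 6698 on wild-type SpV arrays, 3303 to 8123 on wild-type HVT arrays, 4997 to 20416 on knockout SpV arrays and 1859 to 2670 on knockout HVT arrays. All 5 were lower with ventilation in the knockout, with a median of -1.98 and none called; S100a8 differed by -2.50 ± 0.47 (adjusted p = 0.202). The part of the neutrophil markers in the Cyp4f18 values was not tested.

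The P450s best known from airway epithelium passed the filter on all 12 arrays, and none of Cyp2f2, Cyp4b1 and Cyp2b10 was called in any comparison. Cyp2f2, the club cell enzyme that activates naphthalene, had means ± SD of 19082 ± 1020 on wild-type SpV arrays, 20479 ± 1234 on wild-type HVT arrays, 19490 ± 3157 on knockout SpV arrays and 21921 ± 441 on knockout HVT arrays (n = 3 each). Its averaged genotype difference was 0.06 ± 0.08, with a 95% interval from -0.11 to 0.23. This interval holds only as far as the array measures at such brightness, because the deposited signal of Cyp2f2 lay at 74.1% to 88.5% of the highest signal of its array. Cyp4b1, which hydroxylates fatty acids and activates some protoxins in airway cells, averaged 6744.5 ± 242, 7418 ± 831, 7015 ± 398 and 7788 ± 1233 in the same order, with a genotype difference of 0.06 ± 0.09 (95% interval -0.14 to 0.26). Cyp2b10, a member of a family induced through the receptor CAR, averaged 4316 ± 643, 5202 ± 1351, 4302 ± 546 and 4547 ± 918. Its genotype difference was -0.09 ± 0.15 (95% interval -0.42 to 0.24), and all 3 of its probe sets passed the filter on all 12 arrays. All 7 club cell markers passed and none was called in any comparison, with summed signals from 75673 to 92041.

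Cyp2e1, which oxidises ethanol and small solvents, stood out on 1 array. It read 1535 on array 2 of the knockout HVT group and 145 to 528 on the other 11 arrays. The same array had the highest signal of the fat gene Adipoq (1139, against 22.4 to 431 elsewhere) and the highest summed fat markers (2172, against 342 to 822). The part of the fat markers in this value was not tested. The difference with ventilation in the knockout was 0.51 ± 0.65 (adjusted p = 0.817).

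Further xenobiotic genes, Cyp2c29, Cyp2c38, Cyp2c54, Cyp2c68, Cyp2d13 and Cyp2b9, lay between 33.7 and 381 on all arrays, and their averaged genotype differences ran from 0.00 (Cyp2c54) to 0.45 (Cyp2c29), with none called. For Cyp2c38, Cyp2c68, Cyp2d13 and Cyp2b9 the highest of the 12 readings was on array 1 of the knockout SpV group (319, 161, 281 and 141). Cyp2d13 read 147, 97.0 and 64.4 on wild-type SpV arrays, 205, 114 and 122 on wild-type HVT arrays, 281, 134 and 145 on knockout SpV arrays and 122.5, 145.5 and 142 on knockout HVT arrays, so its groups overlap. Of 7 liver markers on the array, 2 passed, Alb (87.2 to 238) and Hpx (88.8 to 495), and 0 were called in any comparison. Hpx, which binds free heme, differed by 1.36 ± 0.35 with ventilation in the wild type (adjusted p = 0.278). The part of the liver markers in the values of these P450 genes was not tested. Cyp2d22 averaged 455 ± 106, 453 ± 76.3, 416 ± 48.1 and 365 ± 28.0 over wild-type SpV, wild-type HVT, knockout SpV and knockout HVT lungs, with a genotype difference of -0.20 ± 0.14 (adjusted p = 0.438). Cyp2j6, an epoxygenase of arachidonic acid, read 157, 105 and 153 on wild-type SpV arrays, 95, 159 and 128.5 on wild-type HVT arrays, 183, 108 and 102 on knockout SpV arrays and 63.1, 52.0 and 116 on knockout HVT arrays. Its groups overlap, and the difference with ventilation in the knockout was -0.68 ± 0.32 (adjusted p = 0.484). It was -0.45 without knockout SpV array 1, which stood apart, and -0.97 without knockout HVT array 3.

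Among the sterol enzymes, Cyp51, the lanosterol 14-demethylase of cholesterol synthesis, averaged 344 ± 89.8, 381 ± 115, 328 ± 55.0 and 429 ± 185 in the same order of groups. It differed by 0.13 ± 0.30 with ventilation in the wild type, by 0.31 ± 0.30 in the knockout and by 0.04 ± 0.21 between genotypes (adjusted p = 0.934). Msmo1, a later enzyme of that pathway, was the 1 called gene of 17 in the cholesterol list, 0.88 ± 0.17 higher in the knockout (adjusted p = 0.0187), beside 3.74% of all genes. Cyp27a1, the sterol 27-hydroxylase, differed by -0.26 ± 0.20 between genotypes (adjusted p = 0.476). Cyp7b1, the oxysterol 7-hydroxylase, read 83.6 to 213 over the 12 arrays and differed by 0.30 ± 0.21 (adjusted p = 0.436). Cyp46a1, the cholesterol 24-hydroxylase, read 45.7, 76.8 and 41.5 on wild-type SpV arrays, 86.6, 64.1 and 86.1 on wild-type HVT arrays, 112, 49.8 and 76.3 on knockout SpV arrays and 110.2, 128 and 93.9 on knockout HVT arrays. It reached 100 on 3 knockout arrays and on no wild-type array, so it passed the filter through the knockout. With ventilation over both genotypes it differed by 0.45 ± 0.23 (adjusted p = 0.406). Cyp7a1, the rate-limiting enzyme of bile acid synthesis in liver, and Cyp8b1, which sets the share of cholic acid, read 42.4 to 228 and 69.9 to 162 and had averaged genotype differences of -0.05 ± 0.34 and 0.11 ± 0.22. Thus 0 of the 7 sterol genes that passed were called in any comparison.

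Genes that work with the P450s were read from lists. All 6 electron partners passed and 0 were called in any comparison. The smallest p-values in the averaged genotype comparison belonged to Pgrmc1, a heme-binding partner of P450s (-0.34 ± 0.09, adjusted p = 0.0573), and Cyb5b, the mitochondrial cytochrome b5 (-0.48 ± 0.15, adjusted p = 0.0863), with a list median of -0.29 beside 0.01 over all genes. The 6 flavin monooxygenases and epoxide hydrolases had 0 calls, with Fmo1 at -0.27 ± 0.12 (adjusted p = 0.224) and Fmo4 at -0.38 ± 0.17 (0.234) in the averaged genotype comparison. Of 8 heme synthesis genes 0 were called, and Fech, which inserts the iron, had the smallest p with ventilation over both genotypes (-0.51 ± 0.10, adjusted p = 0.0643), followed by Alas2 of red cell precursors (-0.97 ± 0.29, 0.176). The conjugating enzymes (4 of 11 passed), the xenobiotic and lipid receptors (9 of 15) and the retinoic acid genes (6 of 11) had 0 calls in any comparison. In the averaged genotype comparison Sult1d1 differed by 0.64 ± 0.20 (adjusted p = 0.0913), Ugt8a by 0.62 ± 0.25 (0.178), Ppara by 0.57 ± 0.23 (0.183), Aldh1a1 by -0.33 ± 0.16 (0.247) and Aldh1a2 by -0.58 ± 0.41 (0.452). Of 9 eicosanoid genes that passed, Ptgs2, the inducible cyclooxygenase, rose with ventilation over both genotypes (2.69 ± 0.44, adjusted p = 0.0437), where 0.108% of all genes were called.

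By position, many P450 genes lie in clusters. Of the 9 members on chromosome 7, 5 passed, and Cyp2s1 lies between 25802469 and 25816525 beside Cyp2b10 (25897658 to 25926624), whose averaged genotype difference was -0.09 against 0.82 for Cyp2s1. Chromosome 19 holds 13 members, of which 5 passed and 0 were called, and chromosome 17 holds 7, of which 6 passed. Nfe2l2 itself lies on chromosome 2, where the only P450 member, Cyp24a1, did not pass the filter.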

How the data were processed

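Per the submitters' processing notes, the authors made the deposited signal intensity values with the Affymetrix GeneChip Operating Software (GCOS), version 1.4. They are linear and lack the common scaling that the series' design text describes. Each array was scaled to a mean of 500, trimmed by 2% at each end, and quantile normalized. After removal of 64 control probe sets, those with a normalized signal of 100 or more on at least 3 arrays were kept. The design fixed for this work words this filter on the scaled signal, and the normalized signal was used instead. A gene took its single-gene probe set with the highest mean of log2(signal + 16). A fold on this scale understates changes of weak signals. This left 9294 genes from 14510 probe sets. Related P450 transcripts can cross-hybridise, above all on probe sets ending in s_at, x_at or a_at.

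A cell-means model over the 12 arrays was fitted in R 4.3.3 with limma 3.58.1 (eBayes with an intensity trend, 8 residual degrees of freedom), giving 7 comparisons. Tests were two-sided, with Benjamini-Hochberg adjustment over all genes within a comparison and a call at an adjusted p under 0.05. The smallest p of an exact permutation test between groups of 3 is 0.1. The number of arrays limits the precision, with a median SE of 0.30 for a P450 gene between 2 groups and 0.21 for an average. The fit was tested on simulated data with independent normal noise. These data held no array that stands apart and no deviations shared between genes, so the test does not cover such features of the real arrays.

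The members, gene lists and marker lists were chosen with earlier results of these data known. Values on every array were given for called genes and the 3 P450 genes with the smallest p in each comparison, and array values, means or ranges for genes known from mouse lung. Of a partner list, called members or the 2 with the smallest p in 1 comparison were named. Cyp26a1, Cyp3a13, Cyp4a12a, Cyp27a1, Cyp7a1, Cyp8b1, Cyp4f15 and Cyp2d22 were named as members that passed the filter. Replicate numbers in the titles were not used to pair the arrays. Correlations of deviations ran from -0.17 to 0.39 over 18 same-number pairs, with 6 above 0.1. Pairs with different numbers were not compared, so these values cannot exclude a pairing. Marker sums run over the markers on the array. Promoter windows and positions come from RefSeq (GRCm38.p6).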

Additional observations from a re-analysis of the deposited data

How the results depend on the processing

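Each of the 7 counts of called P450 genes and 21 values of single genes was recomputed under 13 alternative settings and with each of the 12 arrays left out, as far as the gene still passed the filter. The counts were also recomputed under 1 setting chosen after seeing the data (each probe set tested on its own). For genotype averaged over breathing, 1 P450 gene was called, beside 3.74% of all genes. The count became 3 with the beta-actin ratio as a covariate (7.25% of all genes called) and 5 with array weights (12.3%). It was 3 with equal array medians (3.57%), 2 with the mean of a gene's probe sets (3.44%) and 2 with suffix-free probe sets only (3.57%). Each probe set on its own gave 2 (1.76% of probe sets called), and the deposited values without scaling gave 0 (1.07% of all genes). With 1 array left out the count ranged from 0 to 2, and the share of all genes from 1.31% to 6.82%. The replicate block gave 3 (5.49% of all genes called), though it is not known whether the replicate numbers pair the arrays. Genotype at rest went from 0 to 1 with the actin covariate (4.15% of all genes called) and 4 with array weights (9.07%). Array weights gave array 1 of the knockout SpV group a weight of 0.133. With them the count was 2 for genotype under ventilation (4.38% of all genes called) and 1 for the interaction (0.990%). It was 3 for ventilation averaged over genotypes (12.6%), 1 for ventilation in the wild type (2.28%) and 1 for ventilation in the knockout (12.1%). Ventilation averaged gave 1 with the actin covariate (5.44% of all genes called). Leaving out 1 array gave 0 to 2 calls for genotype under ventilation, 0 to 1 for ventilation in the knockout and 0 to 1 for ventilation averaged. The higher counts came without array 1 of the knockout SpV group, where 5.29%, 6.54% and 7.06% of all genes were called. The difference of Cyp2s1 between genotypes under ventilation reversed to -0.064 without scaling, where the median of all genes shifted by -0.77. The causes were not tested. The brightness of Cyp2f2 near the top of the scale limits what its values can show.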

Other observations

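A probe set shared by Cyp2a5 and Cyp2a4, enzymes that oxidise coumarin and steroids, names more than 1 gene and was left out of the counts. Its normalized signal varied widely, at 1277, 1750.3 and 1025 in wild-type SpV, 934, 1390 and 3438 in wild-type HVT, 1935, 679 and 696 in knockout SpV and 3849, 618 and 2067 in knockout HVT lungs. All groups overlap, and the difference with ventilation was 0.32 ± 0.63 in the wild type and 0.80 ± 0.63 in the knockout (limma adjusted p = 0.991 and 0.717). The shared probe sets of Cyp3a41a with Cyp3a41b (up to 2.86) and of Cyp4a10 with Cyp4a31 (13.8 to 86.9) were weak. The one shared by Cyp4f37 and Cyp4f16 read 98.4 to 179, with an averaged genotype difference of -0.07 ± 0.18 (adjusted p = 0.907).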
